A study of Mus musculus with 3 samples.

Results

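The chromatin of 10 genes that govern the G1 phase of the cell cycle was compared in 3 fractions of mouse CD4+ T cells: the D-type cyclin genes Ccnd1, Ccnd2 and Ccnd3, the kinase genes Cdk4 and Cdk6, and the inhibitor genes Cdkn1a, Cdkn1b, Cdkn2a, Cdkn2c and Cdkn2d. Overlapping ATAC-seq peaks of the 3 fractions made up 57457 merged regions. Each was given to a gene if that gene's span was the nearest protein-coding span within 100 kb. This gave 63 regions to the 10 genes. ATAC-seq maps open chromatin by letting a transposase insert adapters into DNA that nucleosomes leave bare.

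All cells came from the lymph nodes draining the colon of wild-type C57BL/6J mice. The 4 recipients had received naive CD4+ T cells from CBir1 transgenic mice, whose T cell receptor recognises a bacterial flagellin, stained with CellTrace Violet, a dye that thins with every division. Every recipient drank 2% dextran sulfate sodium for 7 days, which injures the gut lining. FTY720, which stops lymphocytes from leaving lymph nodes, was given at a dose of 1 mg/kg on days 7, 10 and 13. The nodes were taken on day 14. The divided fraction held CBir1 cells that had lost dye, the undivided fraction CBir1 cells that had kept it, and the polyclonal fraction the CD4+ cells of the recipients themselves. No fraction came from mice without dextran sulfate sodium or FTY720. Each pool joined 2 mice and pools were made in duplicate, per the labels, but there was 1 peak list per fraction, so no difference has a replicate check and none was tested.

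Passage through G1 is driven by D-type cyclins bound to Cdk4 or Cdk6. These kinases phosphorylate the retinoblastoma protein, which then releases E2F factors to switch on genes of DNA synthesis. Inhibitors of the INK4 family, encoded by Cdkn2a, Cdkn2c and Cdkn2d, bind the kinases themselves, while the CIP/KIP inhibitors encoded by Cdkn1a and Cdkn1b bind cyclin and kinase together. In resting T cells Cdkn1b protein is high, and signals from the T cell receptor and interleukin 2 raise cyclin D2, cyclin D3 and the kinases.

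The divided, undivided and polyclonal lists held 47963, 41876 and 44426 peaks. Levels are given as summit pileups, the number of fragments over a peak's highest base, which were recovered from the deposited peak statistics. The median pileups were 31, 30 and 27 in the same order. Divided pileups ran 1.21 times as high as undivided and 1.20 times as high as polyclonal pileups over all regions called in both libraries of a pair, so every ratio below is divided by that factor and is called a scaled ratio. The lowest background of each library, another gauge of depth, gave 1.50 and 1.40 in place of these factors. It would lower every log2 scaled ratio of divided cells by 0.31 over undivided and 0.22 over polyclonal cells, and intervals do not cover that choice. All 8 T cell markers examined had a peak at a gene end in each library, and their summed scaled pileup was 994, 958 and 1018 in the divided, undivided and polyclonal library. Of 7 B cell markers, 4, 2 and 3 had one in these libraries (summed scaled pileup 128, 126 and 137), and Cd79b, Ms4a1 and Pax5 had none in any. Of 6 myeloid markers 2, 3 and 3 had one (85, 95 and 97), and of 4 epithelial markers 1, 2 and 2 (22, 47 and 52). In each library 1 of 2 CD8 T cell markers had one (29, 55 and 66; none at Cd8a), 1 of 4 natural killer and innate lymphoid markers (33, 40 and 33; none at Ncr1) and 2 of 4 erythroid markers (95, 101 and 94; none at Hbb-bs or Hba-a1). The part of other cell types in the results was not tested.

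Most of the chromatin around these genes was open in every fraction. Of the 63 regions, 44 were called in all 3 libraries, which is 69.8% (Wilson 95% interval 57.6 to 79.8), against 56.9% of all regions. Of regions called in 1 library, 9 belonged to divided cells (14.3%, the same as the 14.3% of all regions), 3 to undivided cells (4.76%; 6.3% of all) and 2 to polyclonal cells (3.17%; 7.49% of all). The other 5 were called in 2 libraries. Cdk6 accounted for 5 of the 9 in divided cells. Without Cdk6, 34 of 44 regions (77.3%) were called in every library, and in Cdk6 10 of 19 (52.6%) were. Gene-end regions, those within 1 kb of the first or last base of a gene, were the most constant: 11 of 12 were called in all 3 libraries (91.7%; 82.9% of all gene-end regions). Inside the genes 21 of 33 regions were called in all 3 (63.6%; 49.1% over all genes), and outside them 12 of 18 (66.7%; 50.2%).

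**Figure D1:**
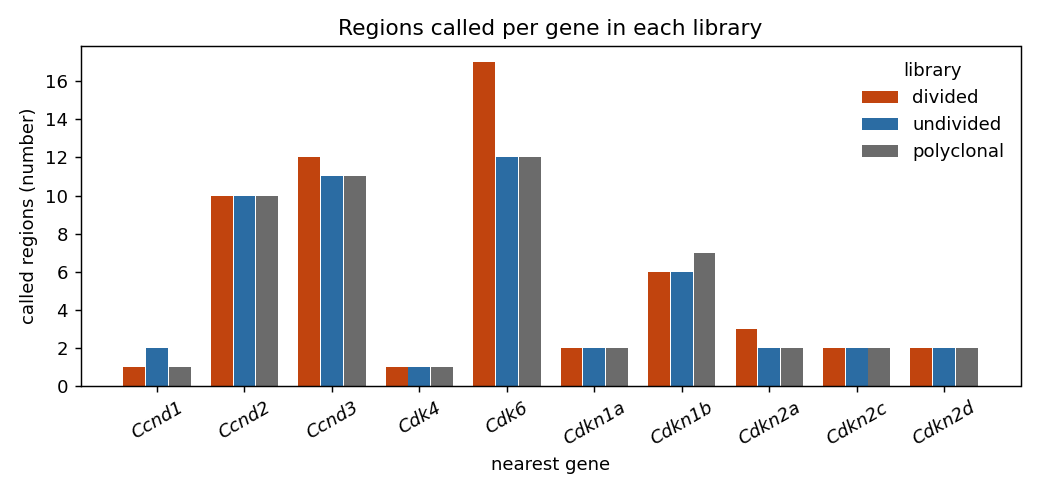
Number of regions called (vertical axis) for each gene (horizontal axis) in the divided, undivided and polyclonal library. Cdk6 had 17 called regions in divided cells and 12 in each of the other fractions, while the counts of every other gene differed by at most 1 between fractions.

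Where these genes had a gene-end region, most were open to a like degree in the 3 fractions. The range of log2 scaled pileup over the libraries was above the median of all genes with such a region (0.27) at Cdkn2a, Cdk6 and Ccnd3. It was 0.50 at Cdk6 (percentile 81.3) and 0.38 at Ccnd3 (percentile 69.4). Of 12 start windows that RefSeq gives for 8 of the 10 genes, each 300 bases long from 250 before to 50 after the first transcribed base, 10 overlapped a peak in each library. Those of Cdk4, Cdk6, Cdkn1b and Cdkn2a are printed 5′ to 3′ on the gene's strand (RefSeq, build GRCm38.p6, the assembly of mm10), because they hold the steadiest start, the start of the gene with most regions, a strong CIP/KIP start and the start of largest range. Capitals mark matches, on either strand, to the words searched: CACGTG (E-box), TTTCCCGC and TTTGGCGC (E2F), GGGCGG (GC box), CCAAT (NF-Y), TGTTTAC (forkhead), TGANTCA (AP-1), CCGGAAGT (ETS) and TTCNNNGAA (STAT).
Cdk4 start, plus strand, chr10:127063285-127063584: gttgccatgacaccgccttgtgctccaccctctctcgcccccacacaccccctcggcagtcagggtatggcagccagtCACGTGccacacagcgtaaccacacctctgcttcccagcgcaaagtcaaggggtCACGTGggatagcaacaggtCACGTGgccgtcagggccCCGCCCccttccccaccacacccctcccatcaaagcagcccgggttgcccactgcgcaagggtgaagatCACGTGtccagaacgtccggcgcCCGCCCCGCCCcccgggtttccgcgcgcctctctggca
Cdk6 start, plus strand, chr5:3343643-3343942: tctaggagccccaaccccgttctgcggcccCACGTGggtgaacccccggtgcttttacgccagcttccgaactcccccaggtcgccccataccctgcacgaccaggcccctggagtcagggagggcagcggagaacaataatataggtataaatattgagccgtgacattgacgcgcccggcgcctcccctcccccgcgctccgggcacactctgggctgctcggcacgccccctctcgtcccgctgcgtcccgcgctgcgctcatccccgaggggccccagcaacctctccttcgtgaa
Cdkn1b start, plus strand, chr6:134920151-134920450: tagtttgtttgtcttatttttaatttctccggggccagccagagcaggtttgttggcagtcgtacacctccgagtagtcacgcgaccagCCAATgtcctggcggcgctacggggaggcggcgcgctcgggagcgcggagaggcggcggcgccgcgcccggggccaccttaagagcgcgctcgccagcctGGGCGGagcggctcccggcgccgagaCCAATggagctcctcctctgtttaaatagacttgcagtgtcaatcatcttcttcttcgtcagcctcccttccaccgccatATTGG
Cdkn2a upstream (Arf) start, minus strand, chr4:89294570-89294869: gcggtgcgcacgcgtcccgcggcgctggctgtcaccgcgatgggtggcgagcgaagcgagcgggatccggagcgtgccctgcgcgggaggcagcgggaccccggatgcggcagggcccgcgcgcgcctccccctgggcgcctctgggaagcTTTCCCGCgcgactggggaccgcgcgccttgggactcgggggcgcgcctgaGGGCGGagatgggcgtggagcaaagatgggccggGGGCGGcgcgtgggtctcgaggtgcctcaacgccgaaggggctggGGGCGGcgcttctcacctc
Cdkn2a downstream (Ink4a) start, minus strand, chr4:89282143-89282442: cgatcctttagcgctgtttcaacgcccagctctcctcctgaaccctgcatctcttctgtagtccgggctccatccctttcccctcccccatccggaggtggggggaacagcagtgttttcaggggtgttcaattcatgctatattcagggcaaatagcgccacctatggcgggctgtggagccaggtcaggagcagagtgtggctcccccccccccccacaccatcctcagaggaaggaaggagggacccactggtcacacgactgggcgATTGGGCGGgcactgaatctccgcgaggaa

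The Cdk4 window held 4 E-boxes, the word bound by Myc and other bHLH factors, at −172, −118, −98 and −11 from the start, and the word occurred in 7.15% of the 32851 RefSeq windows. The Cdk6 window held 1 E-box and no GC box. In the Cdkn1b window 3 CCAAT words were found, 1 of them past the start, beside 1 GC box (37.4% and 35.7% of windows hold these words). The Arf window held the only E2F word of the 12 windows, TTTCCCGC at −99, which 1.07% of windows hold, and 3 GC boxes. It had 45 CpG pairs, the 98.4 percentile of all windows, where the median window had 7. In the Ink4a window a CCAAT and a GC box overlapped by 2 bases. Over the 12 windows GC boxes were found in 9, CCAAT in 5, E-boxes in 3 and the forkhead word in 1 (3.65% of windows). TTTGGCGC (0.514% of windows), TGANTCA (7.81%), CCGGAAGT (3.89%) and TTCNNNGAA (8.30%) were found in none. These are matches of letters only.

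The gene ends fell into 3 tiers in each library. Cdkn2d, Ccnd2 and Cdkn1b had the highest pileups, Cdk6, Cdkn2c, Cdk4 and Ccnd3 lay between them and Cdkn2a, and neighbours within a tier had overlapping counting intervals (exact Poisson, 95%). Such intervals cover counting error only, and fragments without molecular identifiers are not independent molecules. A summit pileup is a count at 1 base, so it needs no correction for gene length. A low pileup cannot be told apart as fewer cells with open chromatin or less opening in each.

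Among the INK4 genes, Cdkn2d had the highest gene end of all 10 genes, chr9:21290767-21291805, with divided, undivided and polyclonal pileups of 309, 267 and 250, the order used from here on. This lay at or above the 98.6 percentile of the 11436 genes with a gene-end region called in all 3 libraries. Its scaled ratio was 0.96 for divided over undivided cells (exact 95% interval 0.81 to 1.13) and 1.03 (0.87 to 1.22) for divided over polyclonal cells, so the fractions differed by less than counting error at this scaling (0.77 and 0.89 by the lowest backgrounds). The other end of Cdkn2d, chr9:21287581-21288716, which is also an end of Kri1, had 199, 171 and 174. Cdkn2c had 149, 104 and 114 at chr4:109665109-109667268, a scaled ratio of 1.18 (0.92 to 1.54) over undivided and 1.09 (0.85 to 1.40) over polyclonal cells. The undivided summit lay 1037 bp from the divided summit, so the former ratio compares different sites within the region. The divided and polyclonal summits lay 3 bp apart.

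Cdkn2a differed most at the gene ends. It encodes 2 proteins from separate first exons, the kinase inhibitor Ink4a and the p53 activator Arf. The region over the Arf start, chr4:89294469-89295311, had a pileup of 30 (20.2 to 42.8) in divided cells and of 9 (4.1 to 17.1) in undivided as well as in polyclonal cells. Divided cells stood above both others, whose pileups were equal. The scaled ratio was 2.75 (1.28 to 6.60) over undivided and 2.77 (1.28 to 6.64) over polyclonal cells, and 2.23 and 2.39 if scaled by the lowest backgrounds. Even so the region was weak: among the 11436 genes it ranked at percentiles 9.13, 1.27 and 1.09 in the 3 libraries. Its range over the 3 libraries, 1.49 on the log2 scale, was the largest of the 8 genes with such a region. It stood at the 99.3 percentile of the 11436 genes, whose median range was 0.27. That ranking takes in gene ends of every level, and counting error alone widens a range at pileups as low as 9. A ranking among equally weak gene ends was not made. The peak covered 300 bases of the Arf window in divided and polyclonal cells and 116 in undivided cells. Over the Ink4a window, further along the gene, no library had a peak. Among other genes of the G1 to S pathway with a strongest gene-end region called in all 3 libraries, the levels most like those of Cdkn2a were at E2f2 (pileups 23, 20 and 24), Cdkn2b (54, 45 and 41) and Cdkn1c (55, 54 and 41), with Euclidean distances of 1.86, 3.30 and 3.50 over the 3 log2 scaled pileups. None of these 3 had a range above 0.42, so the likeness is one of low level. Mnat1, with 15 fragments in divided, 9 in polyclonal cells and no undivided peak in its strongest gene-end region, could not be ranked. The other Cdkn2a regions were chr4:89264730-89264908 with 17, 17 and 11, and chr4:89272575-89272764 with 9 in divided cells and no peak elsewhere.

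**Figure D2:**
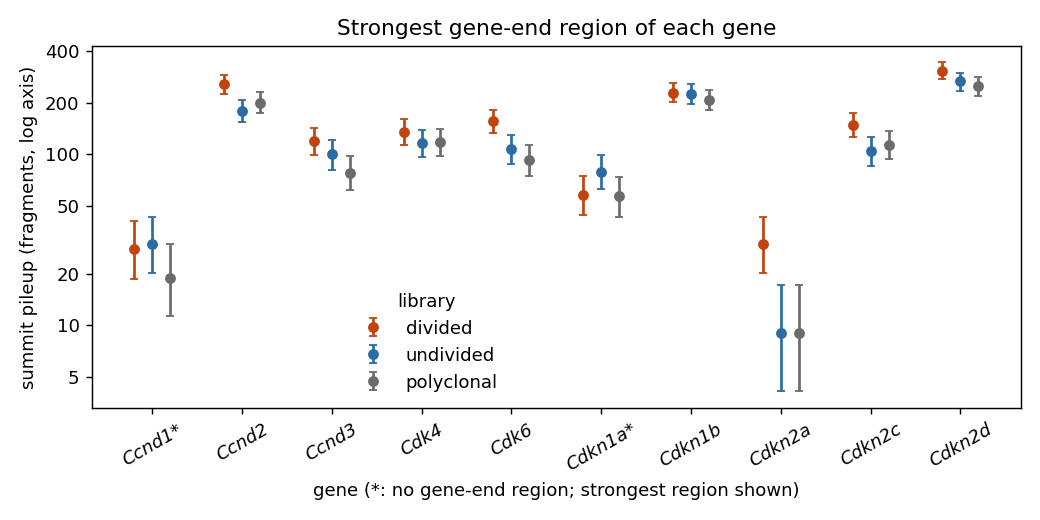
Summit pileup in fragments, on a log axis and before depth scaling, of the strongest gene-end region of each gene (for Ccnd1 and Cdkn1a, which had none, of the strongest region) in the 3 libraries, with exact Poisson 95% intervals. At Cdkn2a the divided library (30) lies above the undivided and polyclonal libraries (9 each), and at Cdk4 the 3 intervals overlap widely.

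At the starts of the CIP/KIP genes divided cells were not higher beyond counting error. Cdkn1b, which encodes the inhibitor p27, had 230, 225 and 209 fragments at its start, chr6:134919866-134920932, and scaled ratios of 0.84 (0.70 to 1.02) over undivided and 0.92 (0.76 to 1.11) over polyclonal cells. The one Cdkn1b region that was at least 2-fold apart lay 21208 bp beyond the gene at chr6:134946733-134947778, with 40, 15 and 26 and a scaled ratio of 2.20 (1.19 to 4.29) over undivided cells, and 1.28 (0.76 to 2.18) over polyclonal cells. By the lowest backgrounds the former was 1.78, under 2-fold. A further region, chr6:134932652-134932969, was called in polyclonal cells alone, with 37 fragments. Cdkn1a, which encodes p21 and is induced by p53, had no peak over the first of its 2 start windows, and peaks of 38, 31 and 43 fragments over the second. The region that holds this second start, chr17:29093495-29095889, had 58, 79 and 57 fragments at its highest summit, which made it lower in divided than in undivided cells (scaled ratio 0.61, 0.42 to 0.86; 0.49 by the lowest backgrounds). The other Cdkn1a region, 8498 bp from the gene, had 59, 62 and 52.

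Of the cyclin genes, Ccnd2 and Ccnd3 had broad sets of regions and Ccnd1 had few. The Ccnd2 gene end chr6:127151394-127153037 had 257, 179 and 201 fragments and a scaled ratio of 1.19 (0.98 to 1.44) over undivided cells. Inside the gene, chr6:127142018-127143033 had 86, 49 and 49, a scaled ratio of 1.45 (1.01 to 2.10) over undivided and 1.46 (1.02 to 2.12) over polyclonal cells. Outside the gene, chr6:127177928-127178375, 25740 bp away, had 18, 34 and 22, and was lower in divided than undivided cells (0.44, 0.23 to 0.80). This was the only one of the 63 regions that was at least 2-fold higher in undivided than divided cells. The region at chr6:127165572-127166045 had 19, 27 and 29 (scaled ratios 0.58 and 0.55, with intervals of 0.31 to 1.09 and 0.29 to 1.01). The other outside regions called in every library differed less. At chr6:127245768-127246507 there were 101, 93 and 101 (0.90, 0.67 to 1.20, over undivided cells). At chr6:127239732-127241087 there were 37, 35 and 38 (0.87, 0.54 to 1.43). Of the 4 Ccnd2 regions missing from a library, chr6:127216142-127216356 and chr6:127123620-127123802 had 11 and 12 fragments in divided cells and no other peak. The others lacked a divided peak: chr6:127122396-127122712 had 10 in undivided and 12 in polyclonal cells, and chr6:127154820-127155027 had 54 in each.

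Ccnd3, the cyclin gene with most regions (13, of which 10 were called in all 3 libraries), had 119, 100 and 78 fragments at its span start, chr17:47504392-47505173, and 148, 100 and 91 over a second start, chr17:47593073-47594369. The first had a scaled ratio of 0.98 (0.75 to 1.30) and the second of 1.22 (0.94 to 1.59) over undivided cells. Over polyclonal cells the first had 1.27 (0.95 to 1.71; 1.09 by the lowest backgrounds). The second had 1.35 (1.04 to 1.78; 1.16 by the lowest backgrounds), above 1 beyond counting error at the scaling used. No Ccnd3 region was 2-fold apart in any pair. The region of highest pileup, chr17:47507246-47508472, had 209, 175 and 170 (0.99, 0.80 to 1.21), and chr17:47531328-47531992 had 182, 108 and 119 (1.39, 1.09 to 1.78). The 3 regions with missing peaks were chr17:47533810-47534140 (35 in divided, 39 in polyclonal cells, none called in undivided cells), chr17:47564742-47564948 (11 in divided cells alone) and chr17:47580468-47580893 (10 in undivided cells alone). Ccnd1, the cyclin gene that many solid tissues use, had no gene-end region in any library. Its region chr7:144937414-144938083 had 28, 30 and 19 fragments, and chr7:144931899-144932098 had 10 in undivided cells alone.

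Among the kinase genes, Cdk4 had a single region, its start at chr10:127063135-127064174, with 136, 116 and 118 fragments. The scaled ratios were 0.97 (0.75 to 1.25) over undivided and 0.96 (0.74 to 1.24) over polyclonal cells. Its range of 0.04 on the log2 scale was at percentile 1.8 of all genes and the smallest of the 8, at the scaling used.

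Cdk6 had the most regions of the 10 genes and the most that were higher in divided cells, the widest of them inside the gene. Of its 19 regions, all but 1 of them within the gene span chr5:3341004-3531008, divided cells had a peak in 17. Undivided and polyclonal cells had a peak in 12 each. The start, chr5:3341778-3344812, had 156, 107 and 93 fragments, a scaled ratio of 1.20 (0.94 to 1.56) over undivided and 1.40 (1.07 to 1.82) over polyclonal cells. Inside the gene, 12.3 kb past the start, chr5:3355616-3356752 had 84, 29 and 38 fragments (2.39, 1.55 to 3.79, over undivided and 1.84, 1.24 to 2.77, over polyclonal cells). By the lowest backgrounds these were 1.94 and 1.58. The widest ratio of all 63 regions was at chr5:3383390-3384224, 39.9 kb past the start, where 77 fragments in divided cells stood against 14 in undivided and 20 in polyclonal cells. There the scaled ratio was 4.55 (2.55 to 8.70) over undivided and 3.20 (1.94 to 5.53) over polyclonal cells, or 3.68 and 2.76 if scaled by the lowest backgrounds. A neighbour at chr5:3382467-3382786 was called in divided cells alone with 22 fragments.

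Toward its far end, within the last 40 kb of its span, the gene held a run of 7 regions over 22.4 kb (chr5:3494620-3517009), singled out after the values were seen. Divided cells had all 7, with pileups of 25 to 45. Undivided cells had 4 of them at 7 to 22 fragments, polyclonal cells had 4 at 16 to 18, and 3 were called in every library. At chr5:3497568-3498083 the pileups were 45, 13 and 16, scaled ratios of 2.86 (1.52 to 5.78) and 2.34 (1.30 to 4.43). The region chr5:3494620-3495202 had 43 in divided and 16 in polyclonal cells (2.24, 1.23 to 4.25; 1.92 by the lowest backgrounds) and no peak in undivided cells. At chr5:3508428-3508816 there were 25 in divided and 7 in undivided cells (2.95, 1.24 to 8.08) and no peak in polyclonal cells. In chr5:3509517-3509815 and chr5:3512597-3512997 divided cells alone had peaks, of 25 and 30 fragments. At chr5:3516708-3517009 the pileups were 27, 9 and 17 (2.48, 1.13 to 5.99, over undivided and 1.32, 0.69 to 2.58, over polyclonal cells). The remaining region of the run, chr5:3501607-3502998, had 41, 22 and 18 (1.54, 0.90 to 2.71, over undivided and 1.89, 1.06 to 3.50, over polyclonal cells). There the undivided summit lay 893 bp from the divided summit, so the ratio over undivided cells compares different sites.

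**Figure D3:**
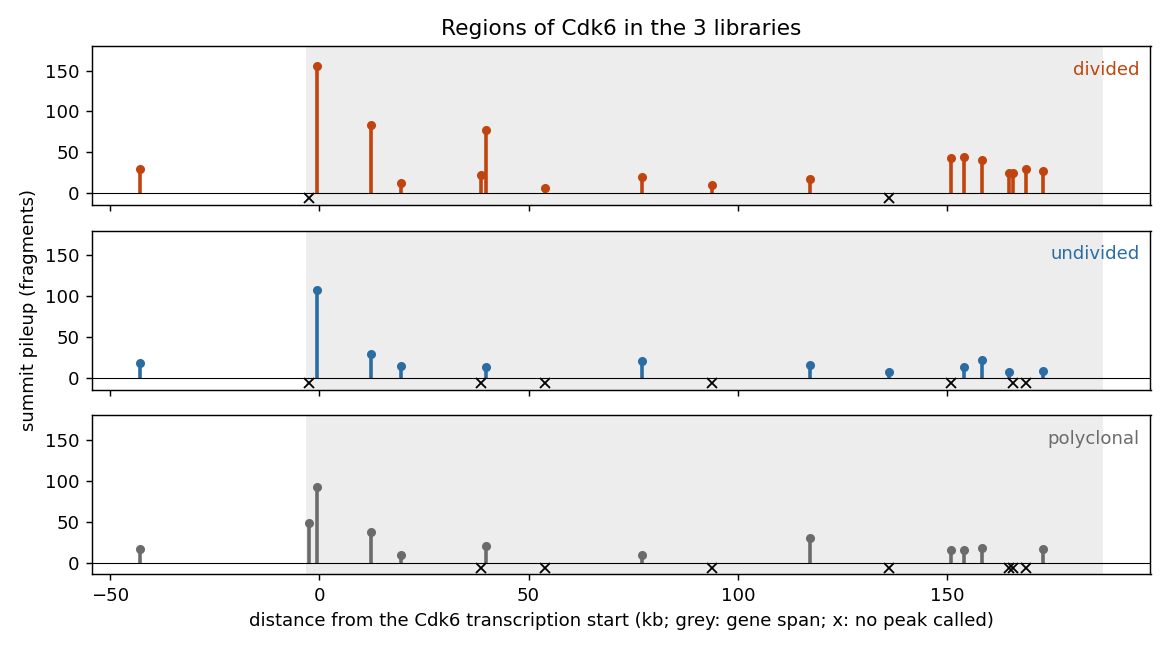
Summit pileup in fragments (vertical axis, before depth scaling) of each Cdk6 region against its distance in kb from the transcription start, in the divided, undivided and polyclonal library, with crosses where a library had no peak. Divided cells had 77 fragments at 39.9 kb against 14 and 20, and peaks in all 7 regions of the run near the far end.

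Not every Cdk6 region followed. At chr5:3460654-3461583 polyclonal cells had 30 fragments against 17 in divided and 16 in undivided cells, a scaled ratio of 0.47 (0.24 to 0.88) for divided over polyclonal cells. At chr5:3420558-3421285 the pileups were 20, 21 and 9, and undivided exceeded polyclonal cells 2.33-fold (1.02 to 5.79). The polyclonal summit there lay 276 bp from the undivided and 274 bp from the divided summit, so ratios over polyclonal cells compare different sites. Polyclonal cells alone had a peak of 49 fragments at chr5:3341270-3341551, just before the start region. Divided cells alone had 10 fragments at chr5:3437693-3437964. Regions outside these, such as chr5:3300780-3301459 with 30, 18 and 17 before the gene, were less than 2-fold apart where called in both libraries of a pair.

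Counted over the gene, 11 Cdk6 regions had a peak in divided and none in undivided cells or were at least 2-fold higher in divided cells, against 1 the other way, a net of 10. Of the 14913 genes with a region, 31 had a net of at least 10, and 26 of these were among the 232 genes with 19 or more regions. The 30 genes with 19 regions had a median net of 1. Against polyclonal cells the counts were 9 and 2, a net of 7, which 49 genes reached. Cdkn2a, with 3 regions, had 2 higher in divided cells and 0 lower in each comparison, 1 of the 2 a peak of 9 fragments called in divided cells alone. Its 2 shared regions had log2 scaled ratios of 1.46 and −0.28 over undivided cells (median 0.59). Over polyclonal cells they had 1.47 and 0.36 (median 0.92). Of the 16 Cdk6 regions inside the gene called in divided or undivided cells, 6 (37.5%) had a divided peak and no undivided peak, where all regions inside genes gave 28.2%. The median log2 scaled ratio of Cdk6 regions called in both libraries was 0.62 over undivided cells (8 of 11 above 0) and 0.88 over polyclonal cells (10 of 11). The local background under these peaks moved too: inside the gene its median ratio of divided over undivided cells, scaled by the lowest backgrounds, was 2.63, and over polyclonal cells 1.81, against 0.98 and 0.99 for all regions called in both libraries. The authors' fold enrichment sets each summit against that local background, so a background that rises with the summits lowers its ratio. Whether reads of the peaks themselves enter that background was not tested. The fold is therefore no separate check on the pileup ratios. Its ratios were divided by their medians over all regions called in both libraries, 0.919 over undivided and 0.957 over polyclonal cells. No Cdk6 region was then 2-fold apart between divided cells and either other fraction (highest 1.83 over undivided and 1.69 over polyclonal cells). The former was at chr5:3383390-3384224, where the authors' fold was 14.0, 8.30 and 9.37. The latter was at chr5:3420558-3421285, where it was 7.49, 10.20 and 4.65 and the polyclonal summit lay at a different site.

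Set against all regions, the 10 genes together were not richer in peaks of divided cells alone. Of the 61 regions called in divided or undivided cells, 11 (18%) had a divided peak and no undivided peak, below the 23.1% of all regions, and 5 (8.2%) in undivided and not divided cells (11.1% of all). Against polyclonal cells, 10 of 60 regions (16.7%) were called in divided cells and not polyclonal cells (19.5% of all) and 4 (6.67%) the other way (12.2% of all). Between undivided and polyclonal cells 4 of 54 (7.41%) were called in undivided cells alone of the pair (12% of all) and 4 in polyclonal cells alone (17% of all). A missing peak says that the authors' threshold was not reached over the local background: chr6:127154820-127155027 near Ccnd2 had 54 fragments in both undivided and polyclonal cells and no peak in divided cells.

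Large ratios were a higher share than over all regions, through Cdk6. Of 45 regions called in both divided and undivided cells, 7 (15.6%) were at least 2-fold higher in divided cells, against 4.24% of all regions, and 1 (2.22%) was at least 2-fold higher in undivided cells (3.48% of all). Of the 7, 5 belonged to Cdk6 and the others to Cdkn2a and Cdkn1b. Without Cdk6, 2 of 34 (5.88%) were that much higher in divided cells. Among all regions inside genes the share was 5.33%, and inside Cdk6 it was 5 of 9 (55.6%). Over polyclonal cells 4 of 46 (8.7%) were at least 2-fold higher in divided cells (3.44% of all), 3 of them in Cdk6 and 1 in Cdkn2a, and 1 (2.17%) was lower by as much (2.4% of all). Between undivided and polyclonal cells 1 of 46 was higher in undivided (1.38% of all) and 0 in polyclonal cells (2.12% of all). In the authors' fold enrichment, 0 regions of the 10 genes were 2-fold higher in divided than undivided or in divided than polyclonal cells. The median log2 scaled ratio of the 10 genes' regions was 0.01 for divided over undivided, 0.13 for divided over polyclonal and 0.00 for undivided over polyclonal cells, beside 0.00 for all regions by construction. The comparisons with divided cells share that library and are no support for each other.

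**Figure D4:**
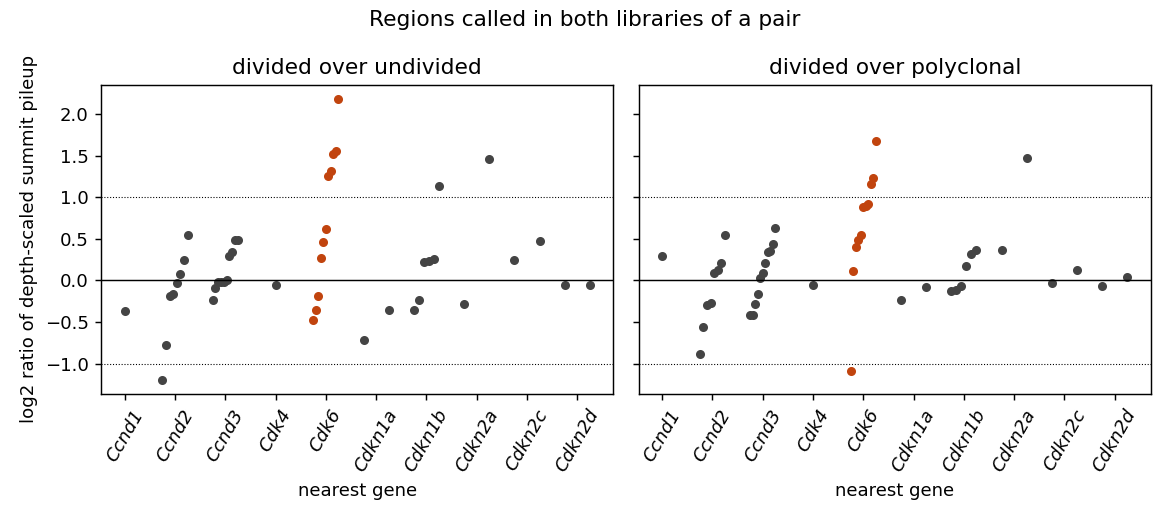
Log2 scaled ratio of the summit pileup (vertical axis) for each region called in both libraries, by gene, for divided over undivided (left) and divided over polyclonal cells (right), with points ordered by value within a gene, Cdk6 in orange and dotted lines at 2-fold. Cdk6 reached 2.18 on the left and 1.68 on the right, and Cdkn2a 1.46 and 1.47.

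The 26 other genes that carry cells from G1 into S phase, among them cyclins E and A2, Cdk2, the retinoblastoma family and the E2F factors, held 105 regions, of which 61 (58.1%, Wilson 48.5 to 67.1) were called in all 3 libraries. A gene-end peak was found at 25 of the 26 genes in each library, and Skp2, a subunit of the ligase that marks p27 for destruction, had none. At the deposited limit, 27 of 101 regions (26.7%; 23.1% of all) had a divided peak and no undivided peak, and 9 (8.91%; 11.1% of all) the reverse. Called in divided and not polyclonal cells were 22 of 99 (22.2%; 19.5% of all), and 7 (7.07%; 12.2% of all) in polyclonal and not divided cells. Counting only peaks with a −log10 q of at least 5, 18 of 101 regions (17.8%) in 10 genes had a divided peak and no undivided peak (13.4% of all regions; 6 of 61 regions, 9.84%, at the 10 genes above), and 4 in 3 genes the other way (5.34% of all). Against polyclonal cells 16 of 99 (16.2%) in 8 genes were called in divided cells alone of the pair (10.4% of all) and 4 in 3 genes in polyclonal cells alone (5.32% of all). Between undivided and polyclonal cells the counts were 4 in 3 genes (5.3% of all) and 5 in 5 genes (7.87% of all). E2f3, an E2F activator, had the most regions called in divided cells alone of the pair, 4 against 0 in both comparisons, out of 11. Fbxw7, which encodes the part of a ubiquitin ligase that recognises cyclin E, had 3 against 1 in both, out of 8. E2f7, an E2F repressor named here after its values were seen, had 3 against 0 in both, out of 6. Tfdp2, the gene of an E2F partner, had 2 of 5 regions in undivided and not polyclonal cells, and E2f3 had 1 on each side there. In this list 3 of 65 regions (4.62%) were at least 2-fold higher in divided than undivided cells, near the 4.24% of all regions, and 1 (1.54%) was lower by as much (3.48% of all). Against polyclonal cells 1 of 70 (1.43%; 3.44% of all) was at least 2-fold higher in divided cells and 2 (2.86%; 2.4% of all) in polyclonal cells. The median log2 scaled ratio of this list was 0.18 over undivided cells (42 of 65 regions above 0) and 0.00 over polyclonal cells (35 of 70). The former is smaller than the 0.31 by which the lowest backgrounds would lower it.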

How the data were processed

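The 3 deposited peak lists, 1 per fraction, were made by the authors with bcl2fastq 2.17, cutadapt 1.12, Trimmomatic 0.33, Bowtie2 2.3.2, Picard, SAMtools and MACS2 2.1.0 on mm10, per the submitters' processing notes. Any shift of reads for the transposase, and the way duplicate pools entered a list, were not given in the sources used here. Every deposited list gives, within its own library, a score (10 times the −log10 q), the fold enrichment of the summit over local background as a linear ratio, the −log10 p-value, the −log10 q-value and the summit offset in bp, and the deposited summit lists repeat the −log10 q-value. The lowest deposited −log10 q was 1.31, 1.30 and 1.30 in the divided, undivided and polyclonal list.

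Pileup and local background were solved from the fold in the deposited lists, read as (pileup + 1)/(background + 1), and the Poisson −log10 p, to a tolerance of 0.001. This gave whole pileups for 99.996%, 99.995% and 99.993% of peaks, missed 0 in the 63 regions, and was tested on simulated data. The number of reads per library is unknown, so relative depth was taken from the median pileup ratio over shared regions. The lowest pileup that could be called was 6 in divided and 5 in the other libraries. Peaks sharing 1 bp were merged. Each library's pileup in a region is that of its highest peak there, so summits can differ in place between libraries. Genes were 21896 RefSeq protein-coding spans of GRCm38.p6, and 3024 regions had none within 100 kb. Ratio intervals are exact Clopper-Pearson, pileup intervals exact Poisson and share intervals Wilson, all at 95%. Python 3.11.15, NumPy 2.4.6, pandas 2.3.3, SciPy 1.17.1 and Matplotlib 3.10.9 were used.

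The genes, lists and tests were chosen with earlier results of these data known. One marker gene of the lists is not reported here. Regions were described singly if they were a gene's strongest gene-end region, were called in 1 or 2 libraries with a −log10 q of at least 5, or had scaled pileups at least 2-fold apart, and a few others were added after their values were seen. From the pathway list, the 2 genes with most one-sided regions per comparison were named. Alternatives were stricter −log10 q limits of 5 and 10, assignment within 20 kb, an overlap of 50%, depth-limited one-sided counts, other depth scalings, the authors' fold in place of pileup and, chosen after seeing the data, the genes without Cdk6.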

Additional observations from a re-analysis of the deposited data

How the results depend on the processing

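With 1 library per fraction, precision rests on counting error and on the depth gauge, and weak peaks near the lowest callable pileup can be missed in the shallower libraries. No paired analysis was possible because each fraction has 1 library. Over 17 results, 64 of 96 alternative values kept their direction and size, 26 moved and 6 changed sign; the cause was not tested except where fewer regions or genes entered. Raising the −log10 q limit to 10 left 5 regions with a divided and no undivided peak (11 at the deposited limit), 1 the other way (5; 2 at a limit of 5) and 2 in polyclonal and not divided cells (4). At that limit 3 regions were at least 2-fold higher in divided than undivided cells (7), 1 in divided than polyclonal (4), 0 in polyclonal than divided (1) and 0 in undivided than polyclonal cells (1), and the median log2 ratio of divided over undivided cells was −0.01 (0.01). Without Cdk6, one-sided counts were 5 for divided and not undivided, 4 for divided and not polyclonal (10), 2 for undivided and not polyclonal (4) and 2 for polyclonal and not undivided cells (4). Counts at least 2-fold apart were then 2 for divided over undivided, 1 for divided over polyclonal, 0 for polyclonal over divided and 0 for undivided over polyclonal cells, and the medians of divided over undivided and over polyclonal cells were −0.02 and 0.04 (0.01 and 0.13). Scaled by the lowest background, the medians were −0.30, −0.09 and, for undivided over polyclonal cells, 0.10 (0.00), with 3 regions at least 2-fold higher in undivided than divided (1) and 2 in polyclonal than divided cells (1). Scaled by gene-end regions, the medians of divided over undivided and of undivided over polyclonal cells were −0.01 and 0.07. In the authors' fold enrichment the medians of divided over undivided and over polyclonal cells were −0.09 and 0.02, and 0 regions were at least 2-fold apart in either direction in both pairs. The alternatives of 20 kb, 50% overlap and depth-limited counts kept every value they were run on within 1.5 times or within its spread. For Cdk6 alone, 4 regions stayed at least 2-fold higher in divided than undivided cells by the lowest background (5 by shared regions). Cdk6 had 6 regions with a divided and no undivided peak. At the undivided depth, 5 of these still counted as callable by the lowest background and 6 by shared regions.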

Other observations

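E2f8, which encodes an E2F repressor that acts late in the S phase programme, was singled out after its values were seen. Its gene-end region, chr7:48880648-48881935, had divided, undivided and polyclonal pileups of 167, 57 and 101 fragments, or 147.9, 61.0 and 106.2 after depth scaling. Divided cells were highest and undivided cells lowest. The divided level was more than 2-fold above the undivided level at this scaling and less than 2-fold above the polyclonal level. Scaling by the lowest backgrounds, which lowers the log2 ratio over undivided cells by 0.31, takes the former under 2-fold as well. No interval was computed for this region. The range of 1.28 on the log2 scale was the largest among gene ends of the other G1 to S genes called in all 3 libraries, and the next was Cdk2 with 0.60 (84, 46 and 59 fragments). E2f7, the related repressor gene, had 171, 125 and 149 fragments at its gene end and a range of 0.23, while 3 of its 6 regions were called with a −log10 q of at least 5 in divided cells and had no undivided peak.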
